A study of Mus musculus with 12 samples.

Results

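This report follows 10 genes that set the pace of the cell cycle, in mouse embryonic stem cells (ESCs) with and without the *Meteor* enhancer. They are 6 cyclin genes (*Ccnd1*, *Ccnd2*, *Ccnd3*, *Ccne1*, *Ccna2* and *Ccnb1*) and 4 genes of cyclin-dependent kinase (CDK) inhibitors (*Cdkn1b*, *Cdkn2a*, *Cdkn2b* and *Cdkn2c*). The members were a fixed list of gene symbols, each matched to 1 Ensembl identifier among the 46517 genes counted, and all 10 were among the 15673 genes tested. RNA was measured by sequencing in 12 samples, 3 of each genotype and day. All cells derive from an ESC reporter line with EGFP inserted at the start of *Eomes* (C57BL/6 background in the labels), which WT and KO therefore share. WT cells keep the *Meteor* enhancer upstream of *Eomes*, whereas in KO cells it had been deleted with the CRISPR-Cas9 nickase and single clones had been picked. How many clones stand behind the 3 KO samples of a day is not given in the sources used here, so a difference between KO and WT cannot be told apart from a difference between clones. Day 0 samples were undifferentiated ESCs grown on feeder fibroblasts with LIF and serum, and day 3 samples were embryoid bodies (EBs), the aggregates in which ESCs start to form germ layers, in a cardiac differentiation medium. Nothing in the labels says that the 3 samples of a group came from separate cultures, and p-values then measure only the spread between these samples.

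Cyclins bind and switch on CDKs. The D-type cyclins (*Ccnd1* to *Ccnd3*) activate CDK4 and CDK6, which phosphorylate the retinoblastoma protein and its relatives and so release E2F transcription factors. Cyclin E1 (*Ccne1*) with CDK2 drives entry into S phase, cyclin A2 (*Ccna2*) acts in S and G2, and cyclin B1 (*Ccnb1*) with CDK1 brings cells into mitosis. The INK4 proteins encoded by *Cdkn2a*, *Cdkn2b* and *Cdkn2c* block CDK4 and CDK6, and p27 (*Cdkn1b*) holds back cyclin E and cyclin A complexes. ESCs are known for a short G1 phase, which lengthens as they differentiate. RNA levels do not measure the cyclin proteins, much of whose control is by degradation.

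Between 17455927 and 23910943 reads per library were counted on genes, and 1 CPM after TMM scaling, which sets libraries to a common size, stood for 17.6 to 24.0 reads. The deletion was visible in the libraries. *Platr11*, a noncoding RNA gene annotated at the *Meteor* locus, had 11 to 112 reads in each WT library and 0 or 1 in each KO library. All 6 pluripotency markers (*Pou5f1*, *Sox2*, *Nanog*, *Zfp42*, *Esrrb* and *Klf4*) were above 1 CPM in every library. At day 0 their summed level was 2616 to 3114 CPM in WT and 3466 to 3851 CPM in KO. At day 3 it was 596.5 to 1119 CPM in WT and 1096 to 1187 CPM in KO. In edgeR's test 1 of the 6 was higher in KO at day 0 and 3 at day 3, and none was lower. Of all tested genes 9.56% and 14.3% were higher. The 6 primitive streak and mesoderm markers summed to 615.0 to 1413 CPM in WT at day 3 and to 73.3 to 148.2 CPM in KO. WT day 3 replicate 3 stood apart from the other two of its group, with 615.0 CPM of these markers against 1413 and 1338, and 596.5 CPM of pluripotency markers against 1109 and 1119. In that library the primitive and visceral endoderm markers (*Gata6*, *Sox7*, *Amn*, *Ttr*, *Afp* and *Cubn*) summed to 115.3 CPM against 35.5 and 42.1. At day 0, WT replicate 3 had 145.9 CPM of the primitive streak and mesoderm markers, against 69.6 and 39.1 in WT replicates 1 and 2. Of these, *T* had 77.4 CPM against 4.64 and 6.42. Where the call of a member at day 3 changes without WT day 3 replicate 3, the result is also given without that library. Changes in size are given for some members only. The 5 neuroectoderm markers (*Sox1*, *Pax6*, *Neurog3*, *Sox3* and *Hes5*) summed to 41.8 to 50.9 CPM in KO at day 3 and to 7.98 to 13.5 CPM in WT, and 4 of them were higher in KO in edgeR's test, with *Hes5* below 0.5 CPM in both genotypes. At day 0 they summed to 13.2 to 20.0 CPM in KO and to 19.2 to 34.7 CPM in WT. In that test 3 of the 5 were lower and none higher in KO at day 0, where 10.9% of all genes were lower. By same-numbered pairs, 2 were higher and 3 lower in KO in each pair of day 0. The 12 fibroblast markers, used here as a sign of feeder cells, summed to 85.8, 274.6 and 134.8 CPM in WT at day 0 (replicates 1, 2 and 3) and to 131.6, 373.0 and 223.9 CPM in KO. At day 3 they summed to 40.7 to 83.0 CPM. *Lum* was below 0.5 CPM in every library. At day 0 the sum was higher in KO in 3 of 3 same-numbered pairs, and 8 of the 11 markers tested were higher in KO in each pair. The share of all genes higher in each pair is not given here. None of the 11 passed edgeR's test at day 0, but 4 did, all higher in KO, with the replicate number as a block within each day. With that block 34.75% of all genes passed, and 2633 of 15673 were higher in KO. At day 3, 3 were higher and 3 lower in KO in the fit reported (14.3% and 16.7% of all genes). The part of these cells in the differences between KO and WT was not tested.

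The members spanned a wide range of levels. Levels of different genes are compared here as CPM per kb of exon. In WT at day 0 the highest were *Ccne1* with 98.96 ± 24.4, *Ccna2* with 87.5 ± 5.09 and *Ccnb1* with 78.7 ± 8.65 CPM per kb (SD, n = 3), and these neighbours lay within their spread of one another. *Ccnd1* followed with 42.7 ± 15.2 and *Ccnd3* with 21.8 ± 2.82 CPM per kb. The lead of *Ccnd1* over *Ccnd3* depends on the length used, as given below for their shares. *Cdkn1b* had 8.80 ± 2.32 and *Ccnd2* 5.89 ± 2.01 CPM per kb, again within their spread. The INK4 genes came last, with 3.61 ± 0.533 CPM per kb for *Cdkn2a*, 1.60 ± 0.215 for *Cdkn2b* and 0.371 ± 0.0663 for *Cdkn2c*. In KO at day 0 the order was the same except that *Ccnd3*, with 42.0 ± 8.34, stood before *Ccnd1*, with 34.2 ± 7.37 CPM per kb. By day 3 *Ccna2* led in both genotypes, with 75.8 ± 11.3 CPM per kb in WT and 83.96 ± 4.43 in KO. In the KO EBs *Ccnd2* had dropped behind *Cdkn2a*, at 0.853 ± 0.0563 against 1.06 ± 0.281 CPM per kb, a gap within the spread. About 28.6% of the 100-base stretches of the longest *Ccnb1* transcript also occur in transcripts of pseudogenes (*Ccnb1-ps*, *Gm12856*, *Gm4870* and *Gm8416*), so its count is uncertain, and the other 9 members share none.

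**Figure D1:**
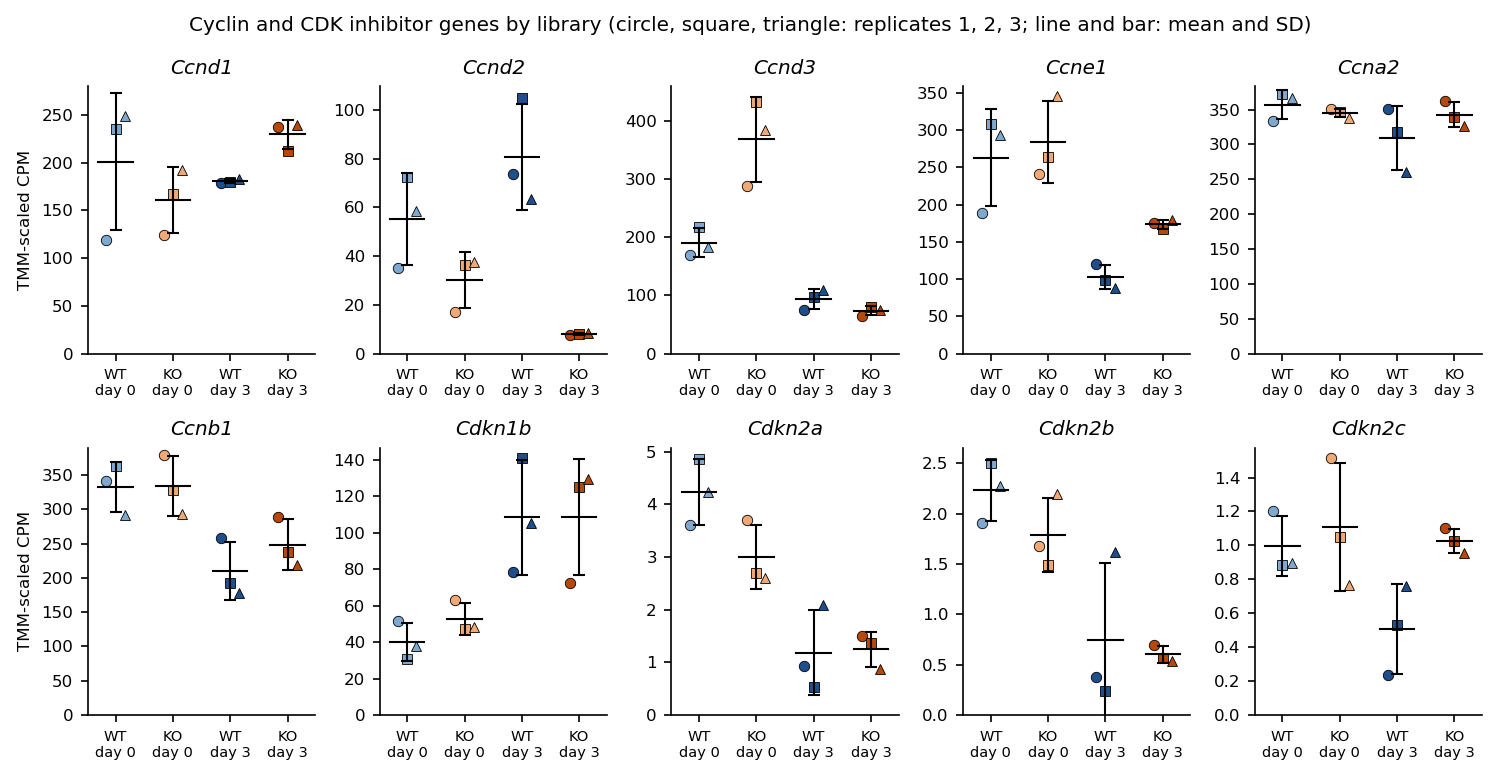
TMM-scaled CPM of each member (vertical axes, each from 0) in the 12 libraries, by genotype and day. Symbols are the replicates and lines with bars the group mean and SD (n = 3); *Ccnd2* lies between 7.45 and 8.49 CPM in the 3 KO libraries of day 3 and between 63.3 and 105.0 CPM in the WT libraries of that day.

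The first comparison asks which members differed between KO and WT in undifferentiated cells. *Ccnd3* was higher and *Ccnd2* lower in KO, and the other 8 members did not pass the test. These are 2 of 10 members (20.4% of all tested genes passed at this day, 9.56% higher and 10.9% lower), a share like that of all genes. At day 3, *Ccnd2* and *Ccnd3* were lower and *Ccne1* higher in KO, 3 of 10 members where 30.9% of all genes passed (14.3% higher and 16.7% lower). The median log2 fold change of the members was -0.026 at day 0 and 0.12 at day 3, against -0.0094 and -0.0020 for all tested genes. Samples of WT and KO with the same number and day deviated together, and with the replicate number as a block within each day 3 members passed at day 0 and 6 at day 3, while 34.75% and 46.88% of all genes then passed. WT and KO of a day enter several of the comparisons below, which therefore share libraries and are not independent of one another.

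Among the D-type cyclins, *Ccnd2* had the largest fold change between KO and WT at day 3. Its position in GRCm38 is 127125162 to 127152193 of chromosome 6, minus strand. At day 0 it had 35.2, 72.6 and 58.4 CPM in WT (replicates 1, 2 and 3) and 17.0, 36.2 and 37.5 CPM in KO. The KO value was lower in each of the 3 same-numbered pairs, although the groups overlap because replicate 1 was low in both genotypes. The log2 fold change of KO against WT was -0.88 ± 0.22 (SE; adjusted p = 0.0216), and 0.0719 was the adjusted p without the block. The call was lost without WT replicate 2 (adjusted p = 0.0824), WT replicate 3 (0.0871), KO replicate 1 (0.0744) or KO replicate 2 (0.0793). At day 3 *Ccnd2* had 73.6, 105.0 and 63.3 CPM in WT and 7.45, 8.13 and 8.49 CPM in KO. Every KO library was far below every WT library, with mean levels 10.1 times apart. The log2 fold change was -3.31 ± 0.25 (adjusted p = 4.46e-05) and stayed between -3.52 and -3.10 whichever of the 6 libraries was left out. Antisense genes that overlap *Ccnd2* had at most 2 reads in any library.

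*Ccnd3* went the other way before differentiation. It lies on chromosome 17 from 47505051 to 47599691 on the plus strand. At day 0 the WT libraries had 170.4, 218.4 and 183.9 CPM and the KO libraries 288.9, 432.4 and 385.3 CPM. The groups did not overlap, and KO was higher in 3 of 3 pairs. The log2 fold change was 0.94 ± 0.096 (adjusted p = 0.000316), between 0.86 and 1.00 with any 1 library left out. At day 3 the WT libraries had 74.7, 97.6 and 109.5 CPM and the KO libraries 65.2, 80.6 and 74.4 CPM. Here the groups overlap, and KO was lower in each pair by a smaller step, a log2 fold change of -0.35 ± 0.097 (adjusted p = 0.022). This call did not hold without the block (adjusted p = 0.142), without WT replicate 3, the library that stood apart (-0.20 and 0.142), or without KO replicate 2 (0.0811) or 3 (0.131). *Ccnd3* overlaps *Bysl* on the other strand, which had 1370 to 2643 reads per library. The strand setting of the counting is not given in the sources used here, so reads in the shared part may be missing from both genes.

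*Ccnd1*, on the minus strand of chromosome 7 from 144929931 to 144939925, had 118.8, 235.7 and 249.0 CPM in WT and 123.8, 167.4 and 192.3 CPM in KO at day 0. Replicate 1 was the lowest of its group in both genotypes, as it was for *Ccnd2* and for the summed fibroblast markers. Replicate 2, with the highest marker sum of its group, had less *Ccnd1* than replicate 3 in both genotypes. The part of feeder cells in these levels was not tested. The log2 fold change was -0.30 ± 0.19 (adjusted p = 0.317), and -0.55 (adjusted p = 0.0235) without WT replicate 1. At day 3 *Ccnd1* had 179.0, 180.1 and 183.2 CPM in WT and 237.6, 212.6 and 239.2 CPM in KO. All 3 KO libraries were above all 3 WT libraries, by a log2 fold change of 0.35 ± 0.19 (adjusted p = 0.198). It passed with the block within each day (0.34, adjusted p = 0.0145) and with only the 6 libraries of that day in the fit (0.35, adjusted p = 0.0053). No other fit gave a call. The adjusted p was 0.284 without the block and 0.104 to 0.673 with 1 library left out. Without KO replicate 1 the log2 fold change was 0.13. *Ccnd1* overlaps *LTO1* on the other strand, which had 129 to 310 reads per library. At day 3 the fibroblast markers summed to 46.4, 55.0 and 75.8 CPM in WT and to 40.7, 80.4 and 83.0 CPM in KO.

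The KO effect on *Ccnd2* and *Ccnd3* itself differed between the days, and these were 2 of 10 members (15.5% of all tested genes). For *Ccnd2* the log2 difference, day 3 minus day 0, was -2.44 ± 0.33 (adjusted p = 0.00173), and for *Ccnd3*, whose effect changed sign, it was -1.28 ± 0.14 (adjusted p = 0.000671). Both calls held with any 1 library left out. For *Ccnd1* the difference was 0.65 ± 0.28 (adjusted p = 0.139), and 0.62 (adjusted p = 0.00816) with the block within each day. Without WT day 0 replicate 1 it was 0.90 (adjusted p = 0.0128). *Ccne1* gave 0.64 ± 0.27 (adjusted p = 0.131), and 0.65 (adjusted p = 0.0154) with that block. Without WT day 0 replicate 1 or WT day 3 replicate 1 the difference for *Ccne1* was 0.85 (adjusted p = 0.0331) or 0.88 (adjusted p = 0.0302).

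**Figure D2:**
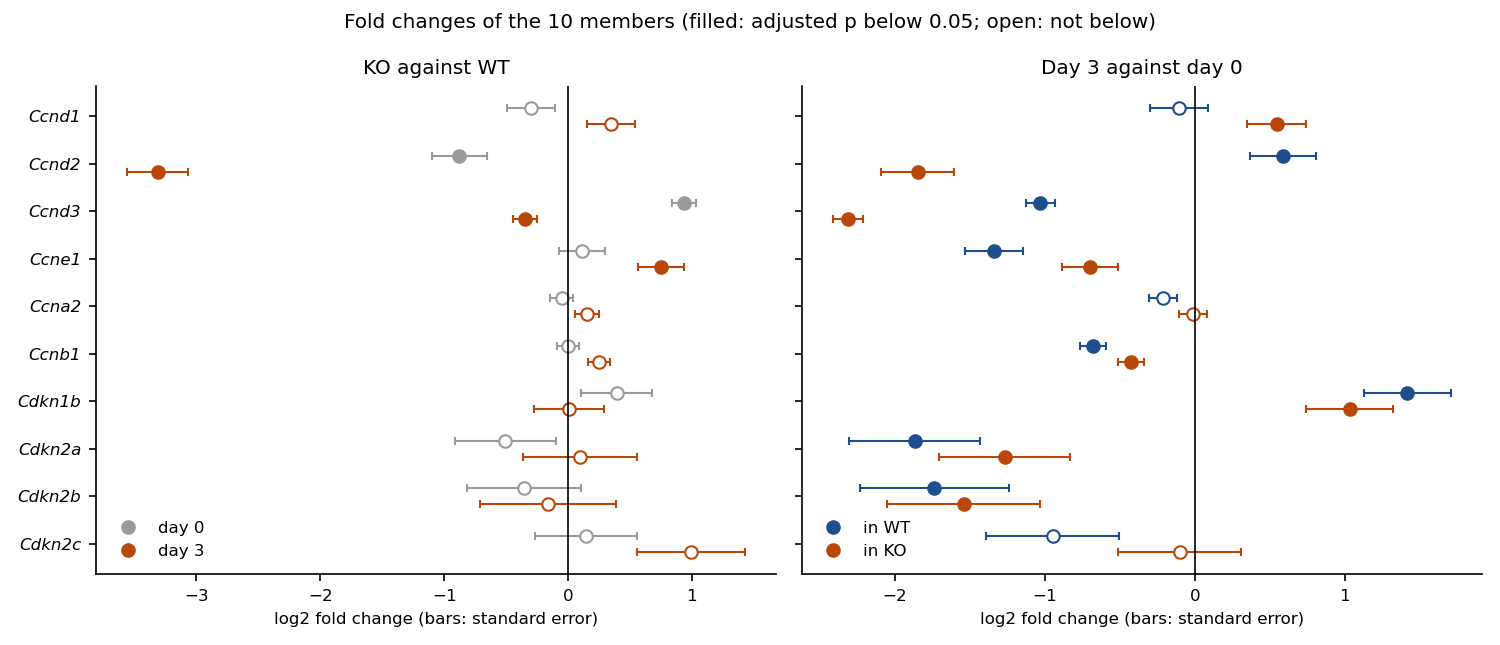
Log2 fold changes (horizontal axes) of the 10 members with their standard errors, for KO against WT at each day (left) and for day 3 against day 0 in each genotype (right). Filled points passed the test; *Ccnd2* at day 3 lies at -3.31, apart from the other 9 members, which lie between -0.35 and 0.99.

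Counted per kb of exon, the D-type cyclin reads were divided differently among the 3 genes in each group, which is given as a description without a test. In WT at day 0, *Ccnd1* held 59.6% ± 7.02 of them, *Ccnd3* 32.1% ± 7.20 and *Ccnd2* 8.28% ± 0.917 (SD, n = 3). In KO at day 0, *Ccnd3* held the largest share, 53.0% ± 3.16, and *Ccnd1* 43.1% ± 2.97. At day 3 the share of *Ccnd1* was 66.7% ± 3.38 in WT and 84.1% ± 2.13 in KO. The share of *Ccnd2* at that day was 14.8% ± 3.45 in WT and 1.47% ± 0.111 in KO, with no overlap of the libraries. The sum over the 3 genes at day 0 was 70.4 ± 19.1 CPM per kb in WT and 79.5 ± 15.99 in KO, higher in KO in 3 of 3 pairs. At day 3 it was 57.7 ± 3.12 CPM per kb in WT and 58.0 ± 2.55 in KO, and 85.4 ± 5.85 and 81.7 ± 2.78 by the longest transcript. With the longest transcript in place of all exons as the length, *Ccnd3* had 45.3% ± 8.02 in WT and 66.7% ± 2.84 in KO at day 0. *Ccnd1* then had 46.99% ± 7.54 in WT, within the spread of *Ccnd3*, and 30.05% ± 2.59 in KO. The shares, and the lead of *Ccnd1* over *Ccnd3* in WT at day 0, thus depend on the length used. The order of the genotypes for the *Ccnd3* share at that day did not.

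**Figure D3:**
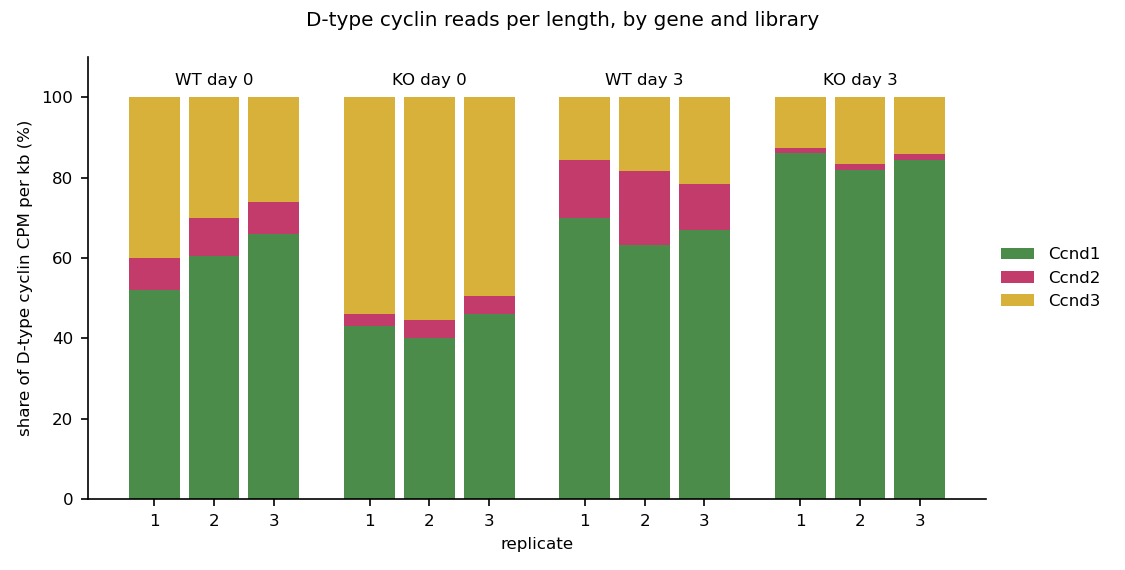
Share of each D-type cyclin gene in their summed CPM per kb of exon (vertical axis, percent), 1 bar per library. The *Ccnd2* part is 11.6% to 18.4% in the WT libraries of day 3 and 1.35% to 1.57% in the KO libraries, and the *Ccnd3* part is 49.5% to 55.6% in the KO libraries of day 0.

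*Ccne1*, on the minus strand of chromosome 7 from 38097984 to 38107534, had 189.1, 308.2 and 293.1 CPM in WT and 241.5, 263.7 and 346.5 CPM in KO at day 0. The groups overlap, with a log2 fold change of 0.11 ± 0.19 (adjusted p = 0.727). At day 3 it had 119.9, 99.2 and 88.3 CPM in WT and 174.8, 167.4 and 178.8 CPM in KO. All KO libraries were above all WT libraries, and the log2 fold change was 0.75 ± 0.19 (adjusted p = 0.0141). Without KO replicate 1 it was 0.67 (adjusted p = 0.0578), and 0.60 (adjusted p = 0.0472) without WT replicate 3, the library that stood apart.

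The cyclins of S phase and mitosis differed less between the genotypes. *Ccna2* had 333.3, 371.7 and 366.3 CPM in WT and 350.7, 346.6 and 338.5 CPM in KO at day 0, and at day 3 it had 350.9, 317.8 and 259.7 CPM in WT and 362.2, 339.7 and 326.5 CPM in KO. The log2 fold change of KO against WT was -0.051 ± 0.094 (adjusted p = 0.752) at day 0 and 0.15 ± 0.094 (adjusted p = 0.248) at day 3. Without WT day 3 replicate 3 the day 3 value was 0.076 (adjusted p = 0.571). *Ccna2*, on chromosome 3 from 36564865 to 36572150, overlaps *Exosc9* on the other strand, which had 925 to 1897 reads per library. *Ccnb1* had 341.5, 362.7 and 291.6 CPM in WT and 379.4, 328.1 and 292.5 CPM in KO at day 0, which overlap. At day 3 it had 257.4, 193.1 and 177.7 CPM in WT and 289.3, 237.1 and 218.3 CPM in KO, higher in KO in 3 of 3 pairs by a log2 fold change of 0.25 ± 0.088. The adjusted p was 0.0524, and 0.0117 with the block within each day, 0.0268 in DESeq2, 0.0400 with RLE scaling and 0.0135 with only the libraries of that day. Without WT replicate 1 it was 0.0271, and 0.0896 to 0.190 without any other 1 library of that day. It was 0.269 without the block and 0.0503 in limma-voom. With 10 counts in every library it was 0.0585, and with no filter 0.0907.

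None of the 4 inhibitor genes passed the test between KO and WT at either day. *Cdkn1b*, on the plus strand of chromosome 6 from 134920401 to 134925513, had 51.6, 30.8 and 37.8 CPM in WT and 62.9, 47.3 and 48.1 CPM in KO at day 0. KO was higher in 3 of 3 pairs, with a log2 fold change of 0.39 ± 0.29 (adjusted p = 0.376, 0.0132 with the block within each day and 0.00741 with only the 6 libraries of that day). Replicate 1, which had the lowest fibroblast marker sum of its group, had the highest *Cdkn1b* in both genotypes. At day 3 the values were 78.6, 141.2 and 105.3 CPM in WT and 72.3, 125.0 and 129.4 CPM in KO, with nearly equal means (log2 fold change 0.0083 ± 0.28, adjusted p = 0.987). Replicate 1 again had the lowest marker sum of its group in both genotypes, but there it had the lowest *Cdkn1b*.

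The INK4 genes were near the lower end of what these libraries could measure. *Cdkn2a* had 3.60, 4.85 and 4.23 CPM in WT and 3.70, 2.70 and 2.60 CPM in KO at day 0. At day 3 it had 0.933, 0.529 and 2.10 CPM in WT and 1.50, 1.36 and 0.874 CPM in KO, which is 11 to 44 reads per library. *Cdkn2b*, its neighbour on chromosome 4, had 1.91, 2.50 and 2.27 CPM in WT and 1.68, 1.49 and 2.20 CPM in KO at day 0. At day 3 it had 0.373, 0.241 and 1.62 CPM in WT and 0.700, 0.569 and 0.541 CPM in KO. WT day 3 replicate 3 held the highest value of its group for both genes, and the log2 fold change of *Cdkn2b* between KO and WT at day 3, -0.16 ± 0.55 (adjusted p = 0.851), became 0.94 (adjusted p = 0.148) without it. *Cdkn2a* gave -0.50 ± 0.41 (adjusted p = 0.426) at day 0 and 0.095 ± 0.46 (adjusted p = 0.895) at day 3, where it was 0.87 (adjusted p = 0.122) without that library. The difference between the days was 0.60 ± 0.61 (adjusted p = 0.557) for *Cdkn2a* and 0.20 ± 0.72 (adjusted p = 0.889) for *Cdkn2b*, and without that library 1.39 (adjusted p = 0.0798) and 1.26 (adjusted p = 0.141). *Cdkn2c* had 1.20, 0.887 and 0.898 CPM in WT and 1.51, 1.05 and 0.766 CPM in KO at day 0. At day 3 the KO libraries, with 1.10, 1.02 and 0.957 CPM, were all above the WT libraries, with 0.233, 0.529 and 0.762 CPM. That difference, 0.99 ± 0.44 (adjusted p = 0.111), passed with the block within each day (adjusted p = 0.0499) and without WT replicate 3 (1.56, adjusted p = 0.0355), but WT had only 5 to 16 reads per library there.

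A *Cdkn2a* count pools 2 kinds of transcript. RefSeq (GRCm38.p6) places its starts at 89294619 and 89282192 of chromosome 4, minus strand, 12427 bases apart. They give rise to p19Arf, which acts through p53, and p16Ink4a, the inhibitor of CDK4 and CDK6. Isoforms were not analysed here, so the counts do not separate these 2 products.

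**Figure D4:**
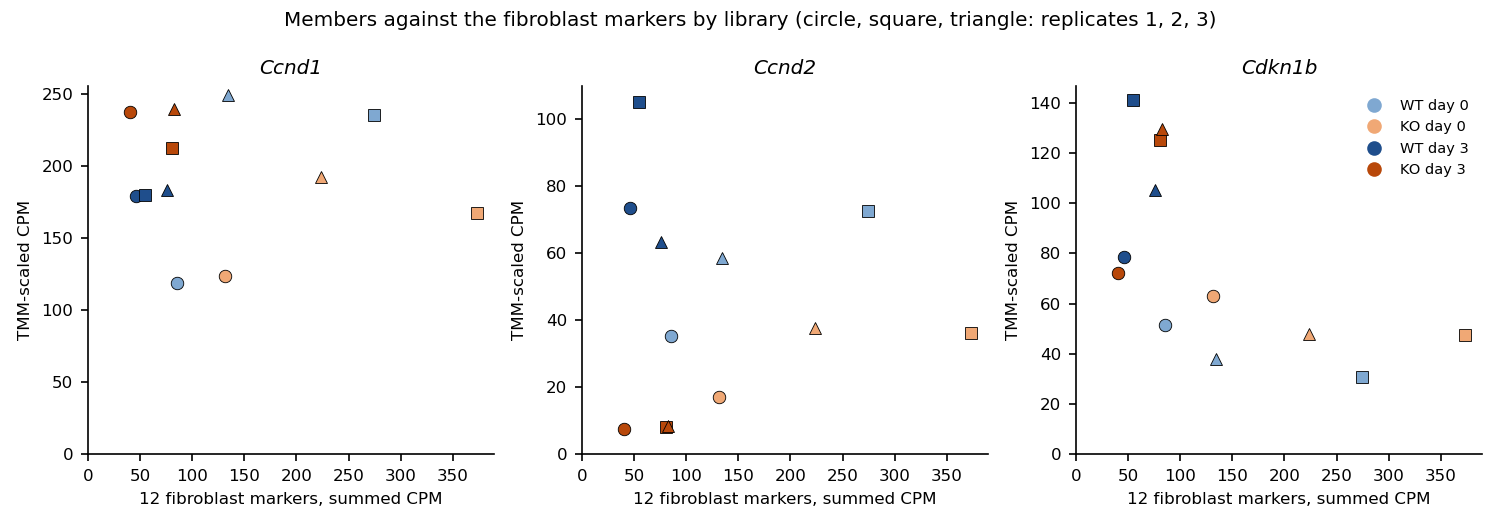
*Ccnd1*, *Ccnd2* and *Cdkn1b* (vertical axes, TMM-scaled CPM) against the summed CPM of 12 fibroblast markers (horizontal axes) in the 12 libraries. At day 0 the replicate with the lowest marker sum of its genotype, replicate 1, has the lowest *Ccnd1* and *Ccnd2* and the highest *Cdkn1b*. Replicate 2, with the highest sum, has the lowest *Cdkn1b* but less *Ccnd1* than replicate 3, in both genotypes. At day 3 replicate 1 has the lowest sum and the lowest *Cdkn1b* in both genotypes. The libraries of day 3 all lie at or below 83.0 CPM of markers.

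The second question is how the members moved from day 0 to day 3. In WT, 7 of 10 members passed the test (56.2% of all tested genes), 2 of them higher at day 3 (30.7% of all genes) and 5 lower (25.5%). In KO, 8 of 10 passed (56.6% of all genes), 2 higher (29.4%) and 6 lower (27.2%). *Ccnd3*, *Ccne1*, *Ccnb1*, *Cdkn2a* and *Cdkn2b* fell and *Cdkn1b* rose in both genotypes. *Ccnd2* rose in WT and fell in KO, and *Ccnd1* rose in KO alone among the calls. The median log2 fold change of the members was -0.81 in WT and -0.56 in KO, against 0.073 and 0.028 for all tested genes.

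*Ccnd3* had the smallest adjusted p of the members in both genotypes. Its mean went from 190.9 ± 24.7 to 93.9 ± 17.7 CPM in WT and from 368.8 ± 73.2 to 73.4 ± 7.77 CPM in KO (SD, n = 3). The log2 fold changes were -1.03 ± 0.097 (SE; adjusted p = 2.4e-05) and -2.32 ± 0.10 (adjusted p = 2.07e-07). *Ccne1* fell from 263.4 ± 64.8 to 102.5 ± 16.1 CPM in WT, a log2 fold change of -1.34 ± 0.19 (adjusted p = 0.000274). In KO it fell from 283.9 ± 55.4 to 173.6 ± 5.80 CPM (-0.70 ± 0.19, adjusted p = 0.00933, and 0.0531 without KO day 0 replicate 3). *Ccnb1* fell by 0.68 ± 0.088 in WT (adjusted p = 0.000154) and by 0.43 ± 0.088 in KO (adjusted p = 0.0021) on the log2 scale. For these 3 cyclins no day 3 library of a genotype reached the lowest day 0 library of that genotype. *Ccna2* gave -0.21 ± 0.094 in WT (adjusted p = 0.0765) and -0.011 ± 0.094 in KO (adjusted p = 0.929), and in WT it passed in DESeq2 (adjusted p = 0.0320), with RLE scaling (0.0380) and without WT day 0 replicate 1 (adjusted p = 0.0175) or WT day 3 replicate 1 (0.0224).

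*Ccnd2* moved apart in the genotypes. In WT it rose from a mean of 55.4 ± 18.9 to 80.6 ± 21.7 CPM, a log2 fold change of 0.59 ± 0.22 (adjusted p = 0.0437). The 2 WT groups overlap, and the call was lost without the block (adjusted p = 0.151), with RLE in place of TMM scaling (0.0609) and with only the WT libraries in the fit (0.0821). Leaving out 1 library also ended it (adjusted p of 0.0638 to 0.182), except for WT day 3 replicate 3 (log2 fold change 0.79, adjusted p = 0.0098). In KO it fell from 30.2 ± 11.5 to 8.02 ± 0.530 CPM without overlap, with a log2 fold change of -1.85 ± 0.24 (adjusted p = 0.000121). The fibroblast marker sum was also lower at day 3 than at day 0 in both genotypes, and its part in the KO decrease was not tested. *Ccnd1* had means of 201.2 ± 71.7 CPM at day 0 and 180.7 ± 2.17 CPM at day 3 in WT, a log2 fold change of -0.10 ± 0.20 (adjusted p = 0.668, and -0.37 with adjusted p = 0.0461 without WT day 0 replicate 1). In KO it rose from 161.2 ± 34.7 to 229.8 ± 14.9 CPM, by a log2 fold change of 0.54 ± 0.20 (adjusted p = 0.0359). This was 0.0754 without the block and 0.0551 to 0.178 without any 1 of the 6 KO libraries except day 3 replicate 2.

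*Cdkn1b* rose in WT from 40.1 ± 10.6 to 108.4 ± 31.4 CPM, by a log2 fold change of 1.42 ± 0.29 (adjusted p = 0.00238). In KO it rose from 52.8 ± 8.82 to 108.9 ± 31.8 CPM (1.03 ± 0.29, adjusted p = 0.0115). The KO call was lost without day 0 replicate 2 (adjusted p = 0.0594), day 0 replicate 3 (0.0552) or day 3 replicate 3 (0.0622). In both genotypes every day 3 library was above every day 0 library. *Cdkn2a* fell by 1.87 ± 0.44 in WT (adjusted p = 0.00481, and a log2 fold change of -2.68 without WT day 3 replicate 3) and by 1.27 ± 0.44 in KO (adjusted p = 0.0302) on the log2 scale. In KO its adjusted p was 0.118, 0.0711 or 0.126 without day 0 replicate 1, day 0 replicate 2 or day 3 replicate 3. *Cdkn2b* fell by 1.74 ± 0.50 in WT (adjusted p = 0.0136) and by 1.54 ± 0.51 in KO (adjusted p = 0.0259). In WT the call was lost with only the WT libraries in the fit (adjusted p = 0.0505), and without day 0 replicate 2 (0.0566), day 3 replicate 1 (0.0539) or day 3 replicate 2 (0.0540). Without WT day 3 replicate 3 the log2 fold change in WT was -2.83 (adjusted p = 0.000382). In KO it was lost without any 1 library except day 3 replicate 1 (0.0516 to 0.125). Fibroblasts also express *Cdkn2a* and *Cdkn2b*, and of 11 fibroblast markers 5 were lower and none higher at day 3 in WT, and 8 were lower and 1, *Dcn*, higher in KO, where 25.5% and 27.2% of all genes were lower. At day 0 replicate 1, with the lowest marker sum of its group, had the lowest *Cdkn2a* in WT but the highest in KO. The part of fibroblasts in these decreases was not tested. *Cdkn2c* gave -0.95 ± 0.44 in WT (adjusted p = 0.0928), and -1.52 (adjusted p = 0.0196) without WT day 3 replicate 3. In KO it gave -0.0998 ± 0.41 (adjusted p = 0.853).

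The promoters of *Ccnd3*, *Ccne1* and *Ccnb1*, which fell together, and of *Cdkn1b*, which rose, are printed as RefSeq gives them for GRCm38.p6. Each is the 250 bases before a transcription start, 5′ to 3′ on the strand of the gene. Capitals mark the CCAAT box (CCAAT, or ATTGG on the other strand), the site of the factor NF-Y, and the GC box (GGGCGG, or CCGCCC), the site of Sp1. *Ccnd3* has starts 88416 bases apart, and both are shown because the counts do not say which was used.
*Ccnd3*, first start, chr17:47504801-47505050, plus strand: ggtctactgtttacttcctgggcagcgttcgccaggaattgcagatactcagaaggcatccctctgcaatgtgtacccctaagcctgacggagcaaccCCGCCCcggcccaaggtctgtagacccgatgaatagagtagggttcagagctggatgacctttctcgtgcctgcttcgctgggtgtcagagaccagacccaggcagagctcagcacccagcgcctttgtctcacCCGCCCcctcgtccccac
*Ccnd3*, second start, chr17:47593217-47593466, plus strand: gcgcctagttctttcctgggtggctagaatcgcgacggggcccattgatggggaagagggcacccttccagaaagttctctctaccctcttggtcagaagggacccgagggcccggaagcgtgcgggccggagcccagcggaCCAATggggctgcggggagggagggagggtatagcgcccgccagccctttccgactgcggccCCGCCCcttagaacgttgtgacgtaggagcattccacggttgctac
*Ccne1*, chr7:38107491-38107740, minus strand: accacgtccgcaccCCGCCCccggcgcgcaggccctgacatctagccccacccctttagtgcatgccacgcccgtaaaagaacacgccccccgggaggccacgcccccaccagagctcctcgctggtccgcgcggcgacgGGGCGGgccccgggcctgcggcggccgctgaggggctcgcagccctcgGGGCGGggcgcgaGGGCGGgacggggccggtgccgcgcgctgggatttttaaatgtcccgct
*Ccnb1*, chr13:100786487-100786736, minus strand: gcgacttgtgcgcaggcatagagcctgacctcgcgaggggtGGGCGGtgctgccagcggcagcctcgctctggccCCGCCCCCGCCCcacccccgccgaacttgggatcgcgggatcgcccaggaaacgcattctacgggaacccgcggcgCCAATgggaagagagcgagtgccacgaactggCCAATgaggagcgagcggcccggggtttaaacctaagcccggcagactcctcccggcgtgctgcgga
*Cdkn1b*, chr6:134920151-134920400, plus strand: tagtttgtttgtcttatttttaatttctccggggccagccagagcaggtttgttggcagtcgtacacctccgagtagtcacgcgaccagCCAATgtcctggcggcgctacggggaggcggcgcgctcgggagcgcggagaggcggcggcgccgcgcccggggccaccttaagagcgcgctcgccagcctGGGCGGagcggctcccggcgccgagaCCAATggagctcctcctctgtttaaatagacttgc

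*Ccne1* holds 4 GC boxes and no CCAAT box, and 76% of its 250 bases are G or C. *Ccnb1* holds 3 GC boxes, 2 of them side by side without overlap, and 2 CCAAT boxes, as does *Cdkn1b* beside 1 GC box. The second *Ccnd3* start has 1 of each, and the first has 2 GC boxes and no CCAAT box. Of the 32851 RefSeq mouse promoters of this length, 33.8% hold a CCAAT box and 32.7% a GC box, so both are common. A match describes the letters only, and the rising *Cdkn1b* and the falling *Ccnb1* carry both. Entries were found for 7 of the 10 members, with none for *Ccnd1*, *Ccnd2* and *Ccna2*.

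The genes whose level across the 12 libraries was most like that of a member were looked up for the 3 members with the widest range of group means, by Pearson's r of log2(CPM + 1) over 12 libraries. The libraries form 4 groups of 3, so these values mostly follow the group means and carry no test. *Ccnd2* (10.1 times between its highest and lowest group mean) was followed most closely by *Ntn1*, the secreted guidance factor netrin-1, with r = 0.952. *Ntn1* had mean levels of 69.95, 37.7, 76.7 and 6.46 CPM in WT day 0, KO day 0, WT day 3 and KO day 3. *Engase* (r = 0.951) and *Cpne2* (r = 0.939) came next. For *Ccnd3* (5.03 times) these were *Nlrx1* (r = 0.992), *Tmem184b* (r = 0.991) and *Itgb4* (r = 0.990), an integrin subunit. For *Cdkn2b* (3.70 times) these were *Gfod1* (r = 0.970), *Slco4c1* (r = 0.958) and *Cd38* (r = 0.956).

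The rest of the cell cycle machinery is described by lists of genes grouped by function. Among the partners of the cyclins, 1 of 4 CDK genes differed at day 0 and 1 at day 3, both times *Cdk1*, the mitotic kinase, which was higher in KO. At day 0 it had 241.6 ± 27.3 CPM in KO and 186.1 ± 18.6 in WT (SD, n = 3; log2 fold change 0.37 ± 0.081, adjusted p = 0.0102), and at day 3 the log2 fold change was 0.29 ± 0.081 (adjusted p = 0.0233). With the block within each day, *Cdk1*, *Cdk2* and *Cdk4* were higher and *Cdk6* lower at day 0, and at day 3 *Cdk1* and *Cdk4* were higher and *Cdk6* lower. Of all genes 34.75% passed with that block at day 0 and 46.88% at day 3. *Cdk6*, a partner of the D-type cyclins, had 55.2, 91.8 and 104.9 CPM in WT and 45.7, 44.2 and 74.6 CPM in KO at day 0, and 63.9, 54.8 and 56.8 CPM in WT and 44.6, 36.2 and 40.2 CPM in KO at day 3. KO was lower in 3 of 3 pairs at each day, with log2 fold changes of -0.62 ± 0.22 (adjusted p = 0.0716, and 0.00475 with that block) and -0.54 ± 0.22 (adjusted p = 0.0873, and 0.00636 with that block). *Cdk4* rose from day 0 to day 3 in both genotypes, by log2 fold changes of 0.48 in WT (adjusted p = 0.00207) and 0.43 in KO (adjusted p = 0.00336). Of the 3 genes of the CDK-activating kinase none passed between KO and WT, and 1 passed at each day with that block. Of the 4 other cyclins, 1 was higher and 1 lower in KO at each day. *Ccnf*, which takes part in protein degradation, was higher in KO at day 0 (263.9 ± 23.6 against 207.4 ± 24.1 CPM, adjusted p = 0.00839) and at day 3 (191.1 ± 21.0 against 156.2 ± 13.5 CPM, adjusted p = 0.0143). *Ccne2*, the close relative of *Ccne1*, was lower in KO at day 3, with 33.7 ± 4.10 against 54.4 ± 8.24 CPM (log2 fold change -0.69 ± 0.11, adjusted p = 0.0012), the opposite side from *Ccne1*. *Ccna1* was lower at day 0 (adjusted p = 0.0404), at no more than 1.15 CPM in any library.

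Of the 3 other CDK inhibitor genes, 1 was higher in KO at day 0 and 1 lower at day 3. At day 0 *Cdkn1c*, which encodes p57, had 158.8, 176.8 and 151.8 CPM in KO and 48.5, 50.5 and 39.7 CPM in WT. Every KO library was above every WT library, and the log2 fold change was 1.81 ± 0.16 (adjusted p = 0.000172). It then fell to 27.3 CPM in KO and 26.6 CPM in WT on average at day 3. *Cdkn1a*, which encodes p21, had 12.9, 17.7 and 23.4 CPM in KO and 48.0, 71.7 and 66.8 CPM in WT at day 3, again without overlap (-1.79 ± 0.30, adjusted p = 0.00208).

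Among the targets and partners of D-type cyclin kinases, 1 of 3 pocket protein genes was lower in KO at day 3 and none passed at day 0. That gene was *Rbl1*, which encodes p107, with 33.3 ± 1.34 CPM in KO and 43.2 ± 2.53 in WT (-0.38 ± 0.096, adjusted p = 0.0151). Of the 10 E2F and DP genes, 1 was higher and 2 lower in KO at day 0, and 1 was higher and 1 lower at day 3. *E2f2*, an activating E2F, had 26.3 ± 6.27 CPM in KO and 10.1 ± 0.315 in WT at day 0 (1.37 ± 0.20, adjusted p = 0.00143). The repressor *E2f7* was lower in KO at that day (40.4 ± 4.24 against 68.3 ± 2.47 CPM, adjusted p = 0.000893), and *Tfdp2* was higher in KO at day 3 (169.1 ± 8.81 against 100.2 ± 11.0 CPM, adjusted p = 0.00152). The other two that passed were *E2f3* at day 0 (-0.33 ± 0.095, adjusted p = 0.0347) and *E2f5* at day 3 (-0.45 ± 0.092, adjusted p = 0.00563), both lower in KO.

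DNA replication genes known as E2F targets were higher in KO at day 3 in 6 of 14 cases and lower in none, where 14.3% of all genes were higher. At this day 4 of 5 neuroectoderm markers and 3 of 6 pluripotency markers were also higher in KO and none was lower. The part of these differences was not tested. The median log2 fold change of the replication genes was 0.26 against -0.0020 for all genes. *Mcm6*, part of the replicative helicase, had 742.2 ± 7.62 CPM in KO and 514.4 ± 27.8 in WT (0.53 ± 0.061, adjusted p = 0.000305), and *Mcm2* 586.6 ± 44.4 against 432.0 ± 49.6 CPM (0.44 ± 0.066, adjusted p = 0.00108). The other four were *Mcm4*, *Mcm7*, *Cdt1* and *Rrm2*. At day 0, 3 of the 14 were higher (*Mcm6*, *Mcm7* and *Rrm2*) and 1 lower, *Cdc6* (-0.46 ± 0.091, adjusted p = 0.00658). From day 0 to day 3, 9 of 14 fell and 1 rose in WT, and 7 fell and 2 rose in KO. Of all genes 25.5% fell and 30.7% rose in WT, and 27.2% fell and 29.4% rose in KO. The 12 genes of G2 and mitosis gave 5 higher and none lower in KO at day 3, with a median of 0.17. *Mybl2*, which encodes B-Myb, had 173.4 ± 17.6 CPM in KO and 89.7 ± 12.02 in WT (0.95 ± 0.095, adjusted p = 0.000147), and *Bub1b*, a spindle checkpoint gene, 324.8 ± 3.52 against 246.4 ± 28.7 CPM (0.40 ± 0.072, adjusted p = 0.00274). *Plk1*, *Cdc20* and *Cenpf* were the other three. This count was 2 without WT replicate 3, KO replicate 1 or KO replicate 3, and 3 without KO replicate 2 or without the block. At day 0, *Mybl2* and *Bub1b* were higher and *Top2a* (-0.43 ± 0.097, adjusted p = 0.0123) and *Aurkb* lower. In WT 5 of the 12 fell by day 3 and none rose, and in KO 5 fell and 2 rose, beside the same shares of all genes. With the block within each day, 8 replication genes were higher and none lower in KO at day 3, and 6 mitosis genes higher and 1, *Aurkb*, lower. Of the 15673 genes tested, 3530 were then higher and 3817 lower at day 3 (46.88% passed). At day 0 the same block gave 2633 higher and 2814 lower (34.75% passed). At day 0 that block gave 5 replication genes higher and 2 lower. That block also gave 2 pocket protein genes higher at day 0, 2 E2F and DP genes higher and 3 lower at day 0, and 3 higher and 2 lower at day 3.

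**Figure D5:**
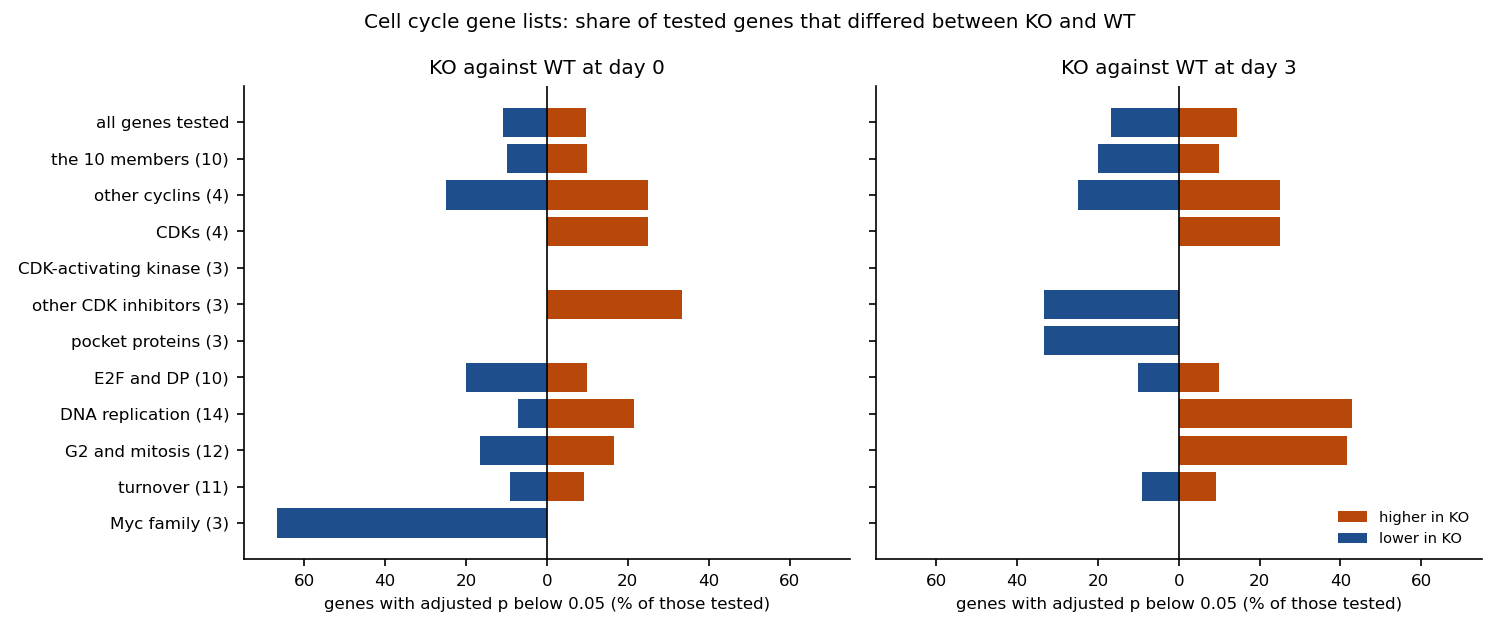
Percent of the tested genes of each list (number in brackets) that were higher (to the right) or lower (to the left) in KO, at day 0 and at day 3, beside all tested genes at the top. In lists of 3 or 4 genes 1 gene makes a long bar; at day 3 the DNA replication and mitosis lists have 6 of 14 and 5 of 12 genes higher and none lower.

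Of 11 genes for the turnover of cyclins and inhibitors and for the phosphorylation of CDKs, 1 was higher and 1 lower in KO at each day. *Fzr1*, an activator of the anaphase-promoting complex, was higher in KO at day 0 (0.50 ± 0.095, adjusted p = 0.00576), and the phosphatase gene *Cdc25a* lower (-0.23 ± 0.063, adjusted p = 0.0273). At day 3 *Fbxo5*, an inhibitor of that complex, was higher in KO (0.23 ± 0.068, adjusted p = 0.0263) and another phosphatase gene, *Cdc25c*, lower (-0.38 ± 0.11, adjusted p = 0.0261). With the block within each day 4 of the 11 were higher and 1 lower at day 3, where 46.88% of all genes passed. Of the Myc family, which is known to act on cyclin and inhibitor genes, 2 of 3 were lower in KO at day 0 and none passed at day 3. *Mycn* had 129.3, 49.2 and 85.4 CPM in KO and 303.1, 224.9 and 301.4 CPM in WT at day 0 (-1.70 ± 0.28, adjusted p = 0.00314). *Mycl* had 6.06 ± 1.27 CPM in KO and 21.2 ± 7.48 in WT (-1.82 ± 0.27, adjusted p = 0.00166). Of the 2 genes beside *Cdkn2a* and *Cdkn2b*, *Dmrta1* was lower in KO at day 3, with 1.35, 0.512 and 0.874 CPM against 4.06, 4.19 and 5.48 CPM in WT (-2.38 ± 0.31, adjusted p = 0.000576).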

How the data were processed

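RNA-Seq data of 12 samples (WT and *Meteor* KO, day 0 and day 3, 3 each) were analysed from the deposited values, which are read counts per gene and library that the authors did not normalize. After selection of polyadenylated RNA, the authors trimmed reads by Cutadapt (v. 1.3), aligned them to GRCm38 with STAR (v. 2.4.2a) and counted with htseq-count (v. 0.6.1, named HTSeq in the submitters' processing notes). Reads aligned to several places, 36.5% to 44.1% of those listed, are not in the gene counts, which lowers genes with near-identical copies. Whether strand was used in counting is not given in the sources used here. The paper and the labels name different RNA kits and sequencer models.

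Genes above 1 CPM in at least 1 library were fitted with edgeR 4.0.16 (quasi-likelihood test, TMM, R 4.3.3), with the 4 combinations of genotype and day as groups and a block for the replicate number. The authors' methods name a batch factor without saying what it was, and the replicate number was used in its place. All p-values were adjusted by Benjamini-Hochberg over the 15673 tested genes and are two-sided, and passed means below 0.05. Standard errors come from the log2 fold change and F statistic. The scripts were tested on simulated data with a replicate effect shared by both days. That test could not show whether such a shared effect holds in these libraries. Same-numbered WT and KO libraries of a day deviated from their group means together (r of 0.29 to 0.69 over 13805 genes), so numbers pair samples within a day. Across days r was -0.20 to 0.07. The block of the fit reported is shared by both days, a pairing that these values do not show. Symbols, positions and exon lengths are from GENCODE M21 (46005 of 46517 identifiers matched), promoters from RefSeq. Alternatives were limma-voom (limma 3.58.1), DESeq2 1.42.0, RLE scaling, other filters, other blocks, fewer libraries and each library left out. The members and lists were chosen with earlier results of these data known. Named are all members and, of other lists, at most the 3 genes with the largest log2 fold change in size among those passing between KO and WT. Other list genes named beyond that rule, among them *Cdk2*, *Cdk4*, *Cdk6* and *Dcn*, were chosen after their values were seen. So were the day 3 means of *Cdkn1c* and the *Meteor* locus gene. Tables were handled with Python and figures drawn with matplotlib.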

Additional observations from a re-analysis of the deposited data

Results flagged for a closer look

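The KO effect differed between the days for *Ccnd2*. The log2 fold change of KO against WT was -0.88 at day 0 and -3.31 at day 3, and their difference was -2.44 ± 0.33 (SE; adjusted p = 0.00173 in edgeR's test of the interaction).

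*Ccnd3* was flagged by the same test. Its log2 fold change was 0.94 at day 0 and -0.35 at day 3, a difference of -1.28 ± 0.14 (adjusted p = 0.000671). Groups of 3 samples were not searched for outlying samples.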

How the results depend on the processing

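Counts of members past the threshold moved by more than 1.5 times in these cases. Between KO and WT at day 0, 1 member passed without the replicate block in place of 2, and 1 to 3 with each library left out. At day 3, 6 passed with the replicate block within each day and 5 with only the samples of that day, in place of 3. Day 3 against day 0 in KO gave 4 to 7 in place of 8 with each library left out. The difference between the days gave 4 with the block within each day and 2 to 4 with each library left out, in place of 2. Over all genes, the block within each day gave 5447, 7347 and 4889 calls at day 0, at day 3 and for the difference, against 3201, 4846 and 2436, and only the samples of day 0 gave 5356. The lowest counts with a library left out were 1717, 2907 and 1391. Blocks within a day give no value for day 3 against day 0 of a genotype, since they coincide with the days. The replicate block changed no other call of a member than those given above. At 10 counts in every library *Cdkn2b* and *Cdkn2c* were not tested.

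Changes of sign were seen only for members that did not pass the test in the fit reported. *Ccnb1* at day 0, -0.0012 on the log2 scale, was 0.0058 without the block, 0.0037 with the block within each day, 0.0048 in limma-voom, 0.0089 in DESeq2 (0.008944) and RLE scaling (0.008895), 0.0039 with only the samples of that day, and -0.098 to 0.097 with a library left out. *Cdkn1b* at day 3 was -0.011 at 10 counts in every library, -0.00084 with no filter and -0.20 to 0.29 with a library left out. Leaving out 1 library also gave ranges through 0 for KO against WT at day 0 in *Ccne1* (-0.093 to 0.28), *Ccna2* (-0.15 to 0.025) and *Cdkn2c* (-0.18 to 0.41). At day 3 this held for *Cdkn2a* (-0.32 to 0.87) and *Cdkn2b* (-0.59 to 0.94). From day 0 to day 3 it held for *Ccnd1* in WT (-0.37 to 0.052), and for *Ccna2* (-0.032 to 0.017) and *Cdkn2c* (-0.37 to 0.22) in KO. The difference between days for *Cdkn2b* was -0.26 to 1.26. The cause was not tested. Of the counts for other lists, 907 under alternatives stayed within 1.5 times of the value reported and 261 did not. The 3 INK4 genes, with 5 to 93 reads per library, limit what can be seen of them.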
